A study of Homo sapiens with 65 samples.

Results

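This account follows 10 genes of the WNT pathway, WLS, FZD4, DKK1, DKK4, SFRP1, AXIN2, NKD1, TMEM88, LEF1 and SP5, through 16 groups of human heart organoids in which the matrix polymer hyaluronan was targeted by genotype or by enzyme. They are 10 of the 58735 genes in the count table. The set was chosen by name as WNT secretion and feedback genes, with WLS, FZD4 and TMEM88 picked because they differed at day 2.5. The day 2.5 contrasts are therefore given as a description only, and tests are reported on the other days and steps.

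The samples were left-ventricular cardioids, self-organising heart-like aggregates grown from WTC-11, an established line of human induced pluripotent stem cells, and their RNA was read by QuantSeq, a 3′ sequencing method that places reads at transcript ends. In the genotype arm, wild-type (WT) cardioids were compared with clones labelled as HAS2 knockout (KO), HAS2 being a hyaluronan synthase; day 1.5 holds 5 WT and 6 KO libraries, days 2.5 and 4.5 hold 6 of each genotype, and day 7.5 holds 3 of each. WT libraries came from the line names WT, WT_TU, cl43_WT_UT and TNT2. KO libraries came from the clones cl4, cl14, cl46 and cl51, with cl4 present as repeats R1 to R3, and at day 7.5 from cl4 and cl14 alone. In the enzyme arm, all of WT genotype, some cardioids were left untreated and others received hyaluronidase, which digests hyaluronan. HAse1.5 marks the enzyme added at day 1.5, and HAse2.5 marks its addition at day 2.5. The arm has 8 groups of 3 libraries, sampled at days 2.5, 4.5 and 7.5, with HAse2.5 sampled on the later days alone. Replicates 1, 2 and 3 were the line names TNNI1, WT and TNNT2. Each library pooled 8 cardioids, so a value is a mean over organoids and over their cell types.

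All groups shared the same WNT regime. Until day 1.5 the cells received 3 µM CHIR99021, an inhibitor of the kinase GSK3 that switches beta-catenin signalling on, with activin A, BMP4, FGF2 and the PI3K inhibitor LY294002. From day 1.5, when cells were dissociated and reseeded with a ROCK inhibitor, until day 3.5 they received 2 µM C59, an inhibitor of the acyltransferase PORCN that blocks WNT secretion, with BMP4, FGF2, insulin and retinoic acid. Step values between days therefore compare cells under different media.

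WNT proteins are lipid-modified signals that WLS carries from the Golgi to the cell surface and that bind Frizzled receptors and LRP5 or LRP6. Binding stops the destruction complex from degrading beta-catenin, which then acts with TCF/LEF proteins on target genes, among them AXIN2, NKD1, SP5, LEF1 and DKK1; several of these products damp the signal again. In heart formation the pathway is needed first for the primitive streak and mesoderm and must then be held down for cardiac mesoderm to become cardiomyocytes.

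The stretches before the starts of SP5 and DKK1 are shown because both genes fell steeply from day 1.5 to day 2.5. Both also hold more than 1 copy of the TCF/LEF core. Several medium components changed together at day 1.5, and the cause of the fall was not tested. The 250 bases before each start were taken from RefSeq on GRCh38.p14, written 5′ to 3′ on the strand of the gene, with matches in capitals. SP5 occupies the plus strand at chr2:170715087-170715336, and DKK1 the plus strand at chr10:52314031-52314280.
SP5: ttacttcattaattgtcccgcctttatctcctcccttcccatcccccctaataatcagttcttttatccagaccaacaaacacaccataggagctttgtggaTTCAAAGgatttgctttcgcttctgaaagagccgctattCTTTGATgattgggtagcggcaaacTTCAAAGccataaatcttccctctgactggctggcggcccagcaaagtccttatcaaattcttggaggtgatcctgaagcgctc
DKK1: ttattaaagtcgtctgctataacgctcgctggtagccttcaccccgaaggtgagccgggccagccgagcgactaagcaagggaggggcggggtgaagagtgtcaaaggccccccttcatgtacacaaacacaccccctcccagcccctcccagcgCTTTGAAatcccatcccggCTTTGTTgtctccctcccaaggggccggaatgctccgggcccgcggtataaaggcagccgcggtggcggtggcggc

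The core was searched on both strands in its 4 spellings, written CTTTGAA, then written CTTTGAT, then written CTTTGTA and lastly written CTTTGTT. SP5 held 3 matches, of which the 2 printed as TTCAAAG are CTTTGAA on the other strand, 148 and 84 bases before the start, and the third is CTTTGAT on its own strand, 109 bases before it. DKK1 held 2 matches on its own strand, CTTTGAA at 95 and CTTTGTT at 76 bases before the start. Of 35116 promoters of that length, 4199 (12%) held at least 1 match and 424 (1.21%) held 2 or more. Entries of WLS, LEF1 and FZD4 were also read, which makes 5 members in all, and those entries held no match. The LEF1 entry (chr4:108166302-108166551) and the WLS entries lie inside the genes as placed below. The stretches before the outermost starts of LEF1 and WLS were therefore not read. Member entries on chromosome 8, where DKK4 and SFRP1 lie, were left out of the reading, so these 2 genes were not searched. AXIN2, NKD1 and TMEM88 were not among the entries read and were not searched either. SP5 and DKK1 were shown because they hold more than 1 match, so their place beside that 1.21% is a description and was not tested. A match is a run of letters and not evidence of binding.

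The members lie on GRCh38 at chr1:68098473-68233120 (WLS, minus strand), chr11:86945679-86955391 (FZD4, minus), chr10:52314296-52318042 (DKK1, plus), chr8:42374068-42377232 (DKK4, minus), chr17:65528563-65561647 (AXIN2, minus), chr4:108047545-108168956 (LEF1, minus), chr2:170715351-170718078 (SP5, plus), chr16:50548330-50649249 (NKD1, plus), chr8:41261958-41309497 (SFRP1, minus) and chr17:7855065-7856099 (TMEM88, plus). Counts were made per gene over exons. Exons of WLS overlap GNG12-AS1, those of FZD4 overlap PRSS23, those of DKK1 overlap PRKG1-AS1, those of LEF1 overlap LEF1-AS1 and those of NKD1 overlap AC007608.1, each on the other strand, and exons of AXIN2 overlap AC004805.1 on the same strand. The strand setting of the counting is not given in the sources used here, so reads of those partners cannot be told apart from reads of the members.

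Library totals ran from 831062 (KO cl4_R1, day 2.5) to 3574843 counts, with a median of 1570954. Levels are counts scaled to a common library total (CPM, 1e6 counts), and log2 fold changes come from edgeR with a Benjamini-Hochberg adjustment over all genes tested and a threshold of 0.05. The floor is 3 counts: where no library of a group exceeds it, a gene is said to be at the floor, which covers counting error only. Overlap between groups is given for members and marker sums as a description, and the share of all genes whose groups stood apart was not computed. HAS2 read at the 3′ end did not separate KO from WT (for example 369.9 to 868.9 CPM in WT and 441.8 to 913.3 CPM in KO at day 2.5), so its counts check nothing about the KO labels. By their numbers the genotype libraries fall into series A (R1 of WT, WT_TU and cl4), series B (R2 of these lines) and series C (the remainder), and the 2 series A libraries of WT lay outside the range of the others for several members. At day 1.5 this held for AXIN2, LEF1, DKK4, WLS and TMEM88, which were lower, and for DKK1, which was higher; HAS2 was lower too, at days 1.5, 2.5 and 4.5. AXIN2 had 5.42 to 12.9 CPM in the series A WT libraries at day 1.5 against 36.0 to 61.5 CPM in the other WT libraries, and LEF1 had 8.73 and 10.9 CPM against 25.1 to 32.0 CPM. What a series shares beyond its library numbers is not given, and WT and KO at day 7.5 came from different series (A and B against B and C).

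Between day 1.5 and day 2.5 the 10 members split evenly, in WT and in KO alike. The feedback genes DKK1, DKK4, SP5, NKD1 and AXIN2 fell and WLS, FZD4, TMEM88, LEF1 and SFRP1 rose. All 10 passed the test in both genotypes, against 30.1% of the 13797 tested genes in WT and 33.3% in KO. For WLS, FZD4 and TMEM88 every step to or from day 2.5 uses libraries on which they were picked, so their values in these steps are a description with no p-value, and counts of called members are also given without them: here 7 of 7 in each genotype.

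The secreted inhibitors DKK1 and DKK4, which block the co-receptors LRP5 and LRP6, fell the furthest. DKK4 in WT at day 1.5 had 73.0, 88.8, 230 (WT_R2), 176 and 346 CPM, and 112 to 323 CPM in the 6 KO libraries. At day 2.5 it had 1 count in a single WT library and 2 counts in a single KO library, which makes the fall at least 118-fold in WT and at least 116-fold in KO, taking 3 counts per library as the floor. From day 4.5 on, DKK4 was at 0 in all WT and untreated libraries, and its highest count elsewhere was 4 (KO cl14_R1, day 7.5, 2.65 CPM). DKK1 in WT went from 99.0, 147, 80.9, 47.7 and 80.1 CPM to between 0 and 2.46 CPM (median 0.698), a log2 change of -6.93 ± 0.66 (SE; edgeR, adjusted p = 5.83e-11). In KO it went from 41.9 to 237 CPM (median 84.5) to between 0 and 8.42 CPM (median 0.899), a log2 change of -6.24 ± 0.62 (adjusted p = 2.24e-10). No day 2.5 library of either genotype reached the lowest day 1.5 library. The DKK1 values at day 2.5 rest on few counts: without TNT2 the WT log2 change was -7.61, and without cl4_R1 the KO one was -7.10.

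SP5, a transcription factor of the Sp family and a direct WNT target, showed the same order of days. Its WT libraries had 117, 55.7, 66.3, 28.7 and 76.5 CPM at day 1.5 and 0 to 11.4 CPM (median 5.27) at day 2.5, a log2 change of -3.80 ± 0.48 (edgeR adjusted p = 6.16e-08). KO libraries went from 41.1 to 177 CPM to between 0 and 3.66 CPM (median 1.53), a log2 change of -5.59 ± 0.56 (adjusted p = 3.52e-10). The groups of the 2 days did not overlap in either genotype.

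NKD1, an inhibitor that binds Dishevelled, had 156, 136, 143, 176 and 230 CPM (TNT2) in WT at day 1.5 and 6.97 to 12.1 CPM at day 2.5. It fell by 4.36 in WT and by 3.95 in KO on the log2 scale (SE 0.35 and 0.33; edgeR adjusted p = 4.89e-13 and 3.1e-12). AXIN2, a scaffold of the destruction complex, changed least among the 5: its log2 change was -1.73 in WT (SE 0.46, edgeR adjusted p = 0.00366) and -1.69 in KO (SE 0.44, adjusted p = 0.00252). In WT its day 1.5 libraries ran from 5.42 to 61.5 CPM and its day 2.5 libraries from 4.04 to 20.9 CPM, so the groups overlapped, with the series A libraries lowest on both days.

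Of the rising members, TMEM88, a membrane protein that binds Dishevelled and is known from cardiac mesoderm, went from close to the floor to a high level. It had 1.96, 1.81, 2.61, 5.13 and 2.58 CPM in WT at day 1.5 and 101 to 180 CPM (median 140.4) at day 2.5, a 43.9-fold difference (log2 5.46 ± 0.39, SE). KO libraries went from 0 to 8.25 CPM to between 50.5 and 80.6 CPM, a 14.6-fold difference (log2 3.87 ± 0.35). SFRP1, a secreted inhibitor that binds WNT proteins, went from 25.2, 18.7, 17.8, 20.0 and 22.7 CPM to between 119 and 197 CPM in WT, a 6.32-fold rise, and from 13.9 to 22.1 CPM to between 216 and 370.5 CPM in KO, a 12.9-fold rise (log2 2.66 ± 0.22 and 3.69 ± 0.22; edgeR adjusted p = 2.37e-12 and 1.09e-16). For both genes every day 2.5 library lay above every day 1.5 library.

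LEF1, the TCF/LEF factor that is itself a WNT target, rose while the other targets fell. WT had 10.9, 8.73, 25.1, 29.2 and 32.0 CPM at day 1.5 and 55.2 to 161 CPM (median 109) at day 2.5, a 4.76-fold rise (log2 2.25 ± 0.32, edgeR adjusted p = 4.03e-07). In KO it went from 14.5 to 37.3 CPM to between 35.5 and 72.3 CPM, a 2.04-fold rise (log2 1.03 ± 0.29, adjusted p = 0.00531). FZD4, a receptor for WNT proteins and norrin, went from 27.7, 22.3, 32.4, 36.9 and 22.2 CPM to between 81.7 and 122 CPM in WT (3.06-fold) and from 24.6 to 37.4 CPM to between 50.9 and 80.6 CPM in KO (1.78-fold). WLS, the WNT carrier, went from 48.4, 67.1, 85.1, 72.8 and 89.4 CPM to between 181 and 294.5 CPM in WT (2.80-fold) and from 67.1 to 115 CPM to between 100.2 and 188 CPM in KO (1.36-fold). The KO count of 10 became 9, without WLS, when cl4_R1, cl4_R2 or cl4_R3 of day 2.5 was left out. The difference between the WT and KO rises was not tested, because it contains the day 2.5 contrast.

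**Figure D1:**
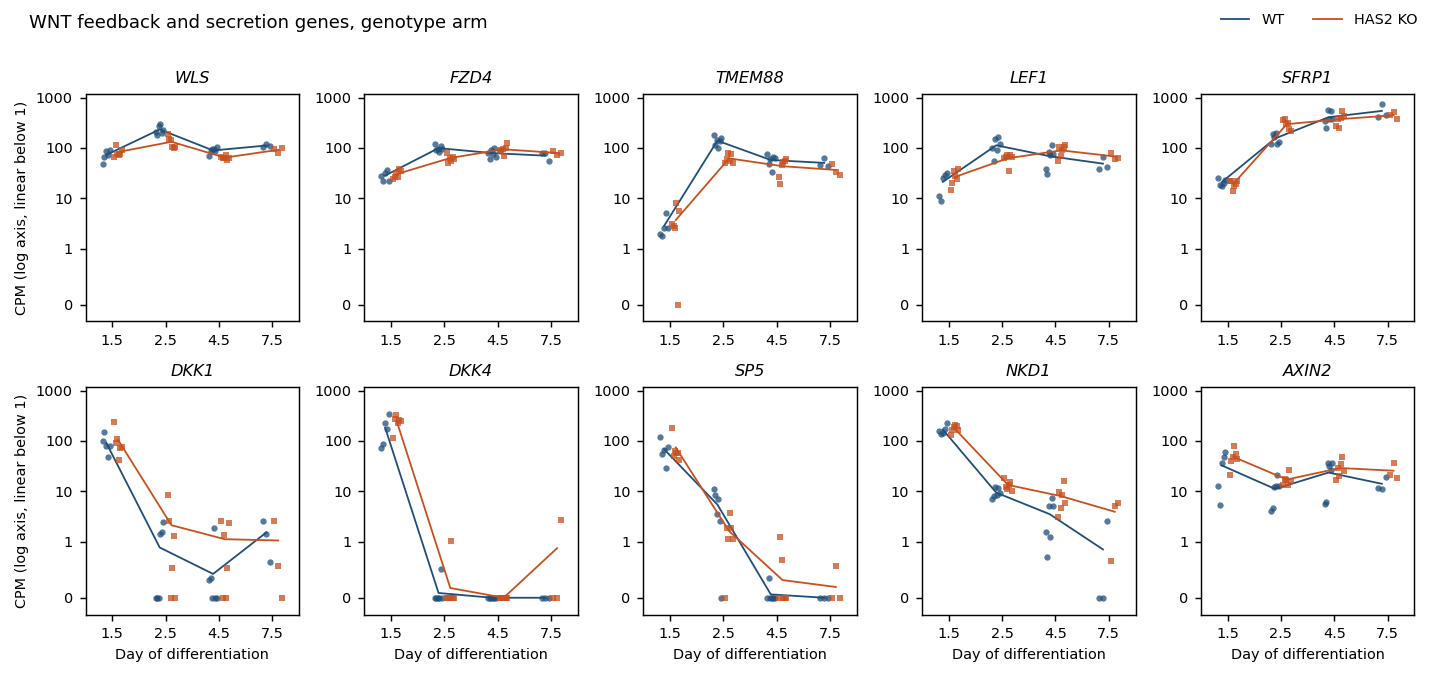
CPM of the 10 members (log axis, linear below 1) by day of differentiation in WT (blue circles) and HAS2 KO (orange squares); each point is a library and lines join group means. TMEM88, SFRP1, LEF1, FZD4 and WLS rise from day 1.5 to day 2.5, while DKK1, DKK4, SP5 and NKD1 drop below every day 1.5 library.

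Markers of cell types moved with this step. The summed level of 4 primitive streak markers was 2809 to 3878 CPM in WT at day 1.5 and 47.9 to 98.4 CPM at day 2.5, where TBXT was at 0 in all 6 libraries, and 2721 to 4499 and 75.2 to 136 CPM in KO. The sum of 5 cardiac mesoderm markers went from 265 to 663 CPM to between 846 and 1985 CPM in WT and from 221 to 454 CPM to between 484 and 970 CPM in KO, and 7 cardiomyocyte markers summed to 48.6 to 107 CPM and then 349 to 2757 CPM in WT. In pooled organoids fewer cells of a type and less RNA per cell cannot be told apart, and the part of cell composition in the members' changes was not tested. The 4 neural markers summed to at most 0.556 CPM in any library of these days.

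From day 2.5 to day 4.5, across the end of the C59 pulse, SFRP1 rose further in WT while NKD1, SP5 and LEF1 fell. In WT 6 of 10 members passed the test, 1 upward and 5 downward, against 34.5% of all tested genes; without WLS, FZD4 and TMEM88, which were picked on the day 2.5 libraries this step starts from, 4 of 7 passed. SFRP1 rose to 250 to 560.1 CPM (median 371), 2.71-fold above day 2.5 (log2 1.44 ± 0.19, edgeR adjusted p = 1.39e-07). NKD1 fell to 0.72 to 7.25 CPM (median 3.38), by 1.48 on the log2 scale (adjusted p = 0.00295). WLS had 67.8 to 104 CPM (median 90.5) and TMEM88 33.8 to 75.6 CPM (median 60.9) at day 4.5, log2 changes of -1.34 and -1.23 that are given as a description. SP5 was at the floor in WT at day 4.5, with 1 count in a single library, a fall of at least 3.43-fold. LEF1 fell by 0.70 (adjusted p = 0.0479) to 30.6 to 114 CPM; its days overlapped, and 8 of the 12 fits that left out a library lost its call, the highest adjusted p being 0.133 (without cl43_WT_UT of day 2.5). The other 7 of those fits left out TNT2 (0.0712), WT_R1 (0.0521) or WT_R2 (0.112) of day 2.5, or TNT2 (0.0582), WT_R1 (0.122), WT_TU_R1 (0.131) or WT_TU_R2 (0.0628) of day 4.5. With the replicate name as a block LEF1 kept the call, and AXIN2 (log2 1.02, adjusted p = 0.00216) and the picked member FZD4 joined the 6.

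In KO 2 of 10 members passed over the same step, against 30.5% of all tested genes, and both, WLS and FZD4, were picked on day 2.5; of the other 7, 0 passed in edgeR (1, SP5, at an unadjusted p under 0.05, which DESeq2 called). As a description, WLS had 58.7 to 72.6 CPM at day 4.5 (log2 change -1.01) and FZD4 70.5 to 123 CPM (log2 change 0.59). SFRP1, which was already at 216 to 370.5 CPM at day 2.5, ran from 243 to 533 CPM at day 4.5 (log2 0.34, edgeR adjusted p = 0.181). With the replicate name as a block 5 members passed, adding AXIN2 (log2 0.76, adjusted p = 0.0174), LEF1 (log2 0.52, adjusted p = 0.0134) and SP5 (log2 -2.48, adjusted p = 0.03). LEF1 had a fitted change of opposite sign in WT and KO, but that contrast again contains day 2.5 and was not tested.

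From day 4.5 to day 7.5 no member passed the edgeR test in WT or in KO, with 1 and 2 of 10 at an unadjusted p under 0.05, and DESeq2 called 0 and 1. Of all tested genes, 2.7% passed in WT and 6.22% in KO. SFRP1 was at its highest mean of the WT course at day 7.5 (419, 759 and 449 CPM), and KO had 456, 507 and 369 CPM. The KO member that DESeq2 called was WLS, which went from 58.7 to 72.6 CPM to 95.7, 80.6 and 98.2 CPM with no overlap (log2 0.57 ± 0.19, edgeR adjusted p = 0.0597). NKD1 had 0, 0 and 2.59 CPM in WT and 0.651, 5.18 and 5.97 CPM in KO at day 7.5.

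At day 1.5 no member differed past the threshold between KO and WT, and no gene of the 13797 did (0%). Unadjusted p-values under 0.05 were found for 0 members and 591 genes, and DESeq2 called 0 members. The median log2 difference was 0.173 over the members and 0 over all genes. The widest fitted difference among members was that of AXIN2, 21.6 to 80.4 CPM in KO against 5.42 to 61.5 CPM in WT (log2 0.58, 95% interval -0.30 to 1.47). The intervals were narrowest for FZD4 (-0.25 to 0.40) and WLS (-0.16 to 0.50).

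At day 2.5 the KO libraries differed from WT in the members as follows, and since WLS, FZD4 and TMEM88 were selected on this day nothing is read from the counts: 4 of 10 members passed the threshold, 1 higher and 3 lower, beside 0.993% of all genes. WLS had 100.2 to 188 CPM (median 125) in KO and 181 to 294.5 CPM (median 221) in WT, a log2 difference of -0.87. FZD4 had 50.9 to 80.6 CPM against 81.7 to 122 CPM (log2 -0.71), and TMEM88 50.5 to 80.6 CPM against 101 to 180 CPM (log2 -1.21). SFRP1 had 216 to 370.5 CPM against 119 to 197 CPM (log2 0.89). The groups did not overlap for FZD4, TMEM88 and SFRP1, and for WLS a single KO library (cl4_R1, 188 CPM) reached the lowest WT library (WT_TU_R1, 181 CPM). LEF1, which was not among the 4, had 35.5 to 72.3 CPM against 55.2 to 161 CPM (log2 -0.90), so its groups overlapped.

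At day 4.5 only WLS passed among 10 members, against 3.74% of all tested genes, and the median log2 difference was 0.219 over the members and -0.0264 over all genes. It had 58.7, 63.4 (median) and 72.6 CPM in KO and 67.8, 90.5 (median) and 104 CPM in WT, a log2 difference of -0.54 ± 0.16 (edgeR adjusted p = 0.0414). A KO library (cl14_R1, 72.6 CPM) lay above the lowest WT library (WT_R1, 67.8 CPM), and the other 5 KO libraries lay below all WT libraries. The direction was the same in all 19 alternative fits, but the call was kept in 7 of them, with adjusted p from 0.0264 to 0.209, and it was lost in 8 of 12 fits without 1 library. Those were the fits without cl4_R2 (0.0628), cl4_R3 (0.0818), cl46_R1 (0.108) or cl51_R1 (0.0962) of KO, and without TNT2 (0.0772), WT_R2 (0.0667), WT_TU_R1 (0.0806) or WT_TU_R2 (0.0752) of WT. Within series C alone the difference was -0.60 (adjusted p = 0.113), and RLE scaling gave -0.52 (adjusted p = 0.0546). WLS had been picked on day 2.5 libraries of the same clones and lines, so its call is not independent of that choice. The cl4 repeats entered as separate KO libraries, and no fit took the clone as the unit.

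NKD1 was the only other member at an unadjusted p under 0.05 on that day. It had 3.05 to 16.2 CPM (median 7.17) in KO and 0.72 to 7.25 CPM (median 3.38) in WT, a log2 difference of 1.22 ± 0.41 (edgeR adjusted p = 0.0821), and DESeq2 called it. FZD4, TMEM88 and SFRP1, which had stood apart at day 2.5, overlapped between the genotypes at day 4.5, with log2 differences of 0.18 (95% interval -0.12 to 0.48), -0.50 (-1.07 to 0.07) and -0.20 (-0.58 to 0.19). LEF1, lower in KO by its mean at day 2.5, had 55.9 to 112 CPM in KO and 30.6 to 114 CPM in WT (log2 0.33, interval -0.24 to 0.89). Cardiomyocyte markers summed to 14620 to 39020 CPM in KO and 22830 to 54470 CPM in WT, and 5 endoderm markers to 28.4 to 102 CPM and 3.95 to 47.5 CPM; their part in these values was not tested.

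At day 7.5, with 3 libraries a group, no member passed the edgeR test between KO and WT, with 1 of 10 at an unadjusted p under 0.05 and 0 by DESeq2, against 0.348% of all genes. WLS had 95.7, 80.6 and 98.2 CPM in KO and 104, 119 and 111 CPM in WT; the groups did not overlap, and the log2 difference was -0.32 (95% interval -0.76 to 0.12). LEF1 had 78.7, 60.4 and 63.7 CPM against 38.5, 66.3 and 41.4 CPM. Whether the KO effect changed was tested between days 1.5 and 4.5 and between days 4.5 and 7.5. In both cases 0 members passed, with 2 and 0 at an unadjusted p under 0.05 and 0 by DESeq2, against 0.196% and 0.159% of all genes. For WLS the effect at day 4.5 was 0.71 log2 units below that at day 1.5 (interval -1.16 to -0.26, adjusted p = 0.322).

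**Figure D2:**
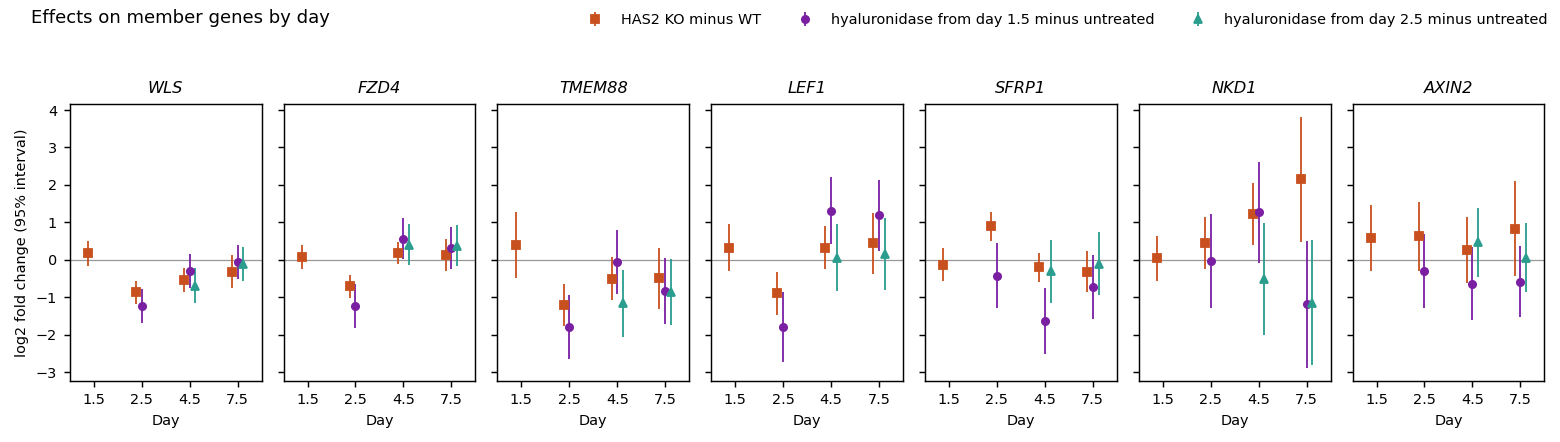
Log2 fold change by day with 95% intervals for 7 members, as HAS2 KO minus WT (orange squares), hyaluronidase from day 1.5 minus untreated (purple circles) and hyaluronidase from day 2.5 minus untreated (green triangles). Day 2.5 points are the contrasts used in choosing the members. At day 4.5 the intervals lie below 0 for WLS in KO and with late enzyme, for SFRP1 with early enzyme and for TMEM88 with late enzyme. They lie above 0 for members such as LEF1 with early enzyme and NKD1 in KO. Intervals are not adjusted for the number of genes, and of those named only WLS in KO and SFRP1 passed the adjusted threshold in the main fit.

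In the enzyme arm DKK4 and SP5 had too few reads to be tested, leaving 8 members. At day 2.5, 1 day after hyaluronidase was added, 3 of the 8 passed the threshold, all lower, beside 1.15% of all genes; these are again the values the members were selected on. WLS had 77.6, 84.7 and 84.3 CPM with enzyme and 154, 194 and 219 CPM without. FZD4 had 35.7, 51.1 and 28.7 CPM against 112, 85.9 and 67.3 CPM, and TMEM88 had 34.3, 131 and 56.8 CPM against 167, 268 and 321 CPM. LEF1, which was not among the 3, had 10.98, 55.9 and 53.7 CPM against 85.3, 155 and 172 CPM. None of these genes overlapped between the groups. Without replicate 2, the enzyme library with 131 CPM, the TMEM88 log2 difference went from -1.80 to -2.52. SFRP1 had 179, 95.9 and 121 CPM against 200.2, 158 and 158 CPM, a log2 difference of -0.42, so its mean was lower with enzyme while it was higher in KO on the same day. The 4 streak markers summed to 161 to 360.3 CPM with enzyme and 66.2 to 120.5 CPM without, the 7 cardiomyocyte markers to 1237 to 1460 against 2555 to 3353 CPM, and the 5 pluripotency markers to 229 to 249 against 179 to 223 CPM. None of these sums overlapped between the groups. The cardiac mesoderm sum did overlap (438 to 1529 CPM with enzyme, 833 to 1404 CPM without), as did the endothelial and endoderm sums. The part of cell composition was not tested.

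At day 4.5 SFRP1 was the member that passed between HAse1.5 and untreated cardioids in the main fit, 1 of 8 tested against 3.48% of all genes. That fit did not use the lines that the groups share, and with the line as block LEF1 passed too. SFRP1 had 86.3, 319 and 132 CPM with enzyme and 375, 614.5 and 602 CPM without, 3.12-fold lower, with no overlap (log2 -1.64 ± 0.42, edgeR adjusted p = 0.0321). The call was lost without replicate 1 or 3 of the enzyme group (adjusted p = 0.172 and 0.167) or replicate 2 or 3 of the untreated group (0.0974 and 0.102), and over 12 alternatives the adjusted p ran from 0.00149 to 0.221. Without replicate 2 of the enzyme group the log2 difference was -2.37. The 7 cardiomyocyte markers, expressed in the cells these cultures make, summed to 4925 to 17700 CPM with enzyme and 21930 to 43040 CPM without, and their part in the SFRP1 difference was not tested.

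LEF1 moved the other way at day 4.5. It had 262.5, 171 and 306 CPM with enzyme and 56.6, 114 and 114 CPM without, so that all enzyme libraries were higher (log2 1.31 ± 0.43, edgeR adjusted p = 0.11); a fit with the line as block gave a difference past the threshold (log2 1.36, adjusted p = 0.0278). FZD4 had 134, 170.3 and 163 CPM against 79.8, 114 and 106 CPM, also apart (log2 0.57, adjusted p = 0.329). DKK1 had 4.34, 0.864 and 15.7 CPM, that is 7, 1 and 27 counts, against 1 count in a single untreated library, at least 3.08-fold higher with the floor at 3 counts per library (adjusted p = 0.0996). SP5 had 6.21, 0.864 and 0.582 CPM with enzyme, that is 10, 1 and 1 counts, and 0 counts in all 3 untreated libraries. WLS had 116, 67.4 and 76.2 CPM against 78.5, 110.1 and 117 CPM, and TMEM88 82.5, 70.0 and 102 CPM against 63.5, 98.6 and 91.1 CPM, so the groups of both overlapped.

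**Figure D3:**
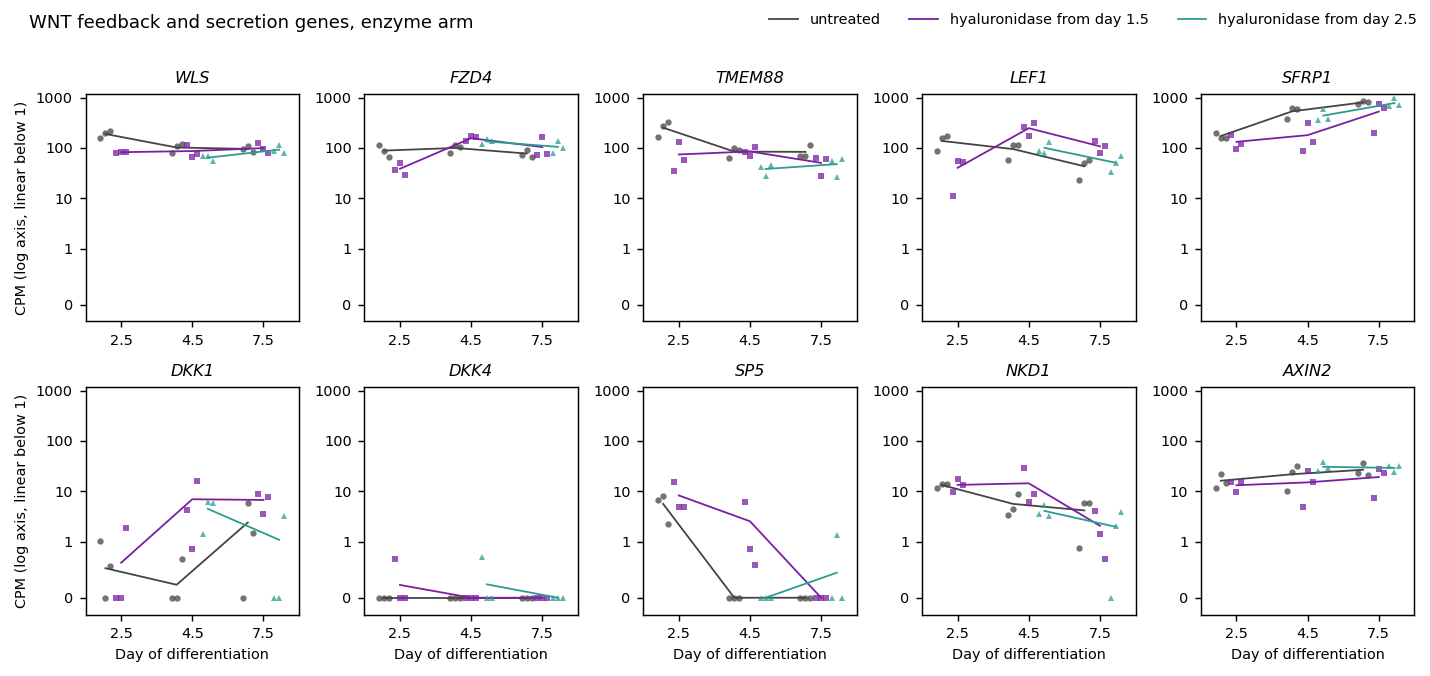
CPM of the 10 members (log axis, linear below 1) by day in untreated cardioids (grey circles) and in those given hyaluronidase from day 1.5 (purple squares) or day 2.5 (green triangles); each point is a library and lines join group means. LEF1 and FZD4 with early enzyme lie below untreated at day 2.5 and above it at day 4.5.

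At day 7.5 no member passed the edgeR test between HAse1.5 and untreated cardioids, with 1 of 8 at an unadjusted p under 0.05 and 0 by DESeq2, against 3.33% of all genes. LEF1 was still higher in each enzyme library, at 135, 78.4 and 109 CPM against 23.2, 49.1 and 57.1 CPM (log2 1.18, 95% interval 0.25 to 2.12, adjusted p = 0.174). SFRP1 had 199.7, 760.0 and 617 CPM against 758, 851 and 796 CPM, the lowest value being that of the TNNI1 line. Cardiomyocyte markers summed to 28240 to 30760 CPM with enzyme and 57000 to 65800 CPM without, and endoderm markers to 1.44 to 13.9 against 32.6 to 167 CPM, both apart; their part was not tested. The HAse1.5 effect did not change past the threshold from day 4.5 to day 7.5 for any member (1 at an unadjusted p under 0.05, 0 by DESeq2), against 0.0157% of all genes.

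With enzyme from day 2.5 only, no member passed against untreated at day 4.5 or day 7.5, with 3 and 0 of 8 at an unadjusted p under 0.05 and 0 by DESeq2, against 0.22% and 0.659% of all genes. At day 4.5 WLS had 68.3, 69.5 and 54.5 CPM (log2 -0.70, interval -1.16 to -0.23, edgeR adjusted p = 0.284) and TMEM88 40.97, 27.3 and 46.2 CPM (log2 -1.16, interval -2.06 to -0.27, adjusted p = 0.448), all below the untreated libraries. LEF1 had 87.7, 80.4 and 133 CPM, overlapping the untreated libraries, and SFRP1 had 354, 586 and 371 CPM. At day 7.5 the 3 groups overlapped for WLS, at 85.8, 113 and 78.6 CPM with late enzyme and 95.5, 109 and 81.6 CPM without.

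Early and late enzyme were also compared with each other, and 0 of 8 members passed at day 4.5 (5 at an unadjusted p under 0.05, 0 by DESeq2) or day 7.5 (2 and 0), against 0.361% and 0.00784% of all genes. At day 4.5 every HAse1.5 library was above every HAse2.5 library for LEF1 (log2 1.25, adjusted p = 0.252), TMEM88 (log2 1.10, adjusted p = 0.339) and NKD1 (log2 1.78, adjusted p = 0.312), and below for SFRP1 (log2 -1.33, edgeR adjusted p = 0.205) and AXIN2 (log2 -1.10, adjusted p = 0.391). Of all 12748 tested genes, 1230 had an unadjusted p under 0.05 in edgeR. The share of all genes separated in this way was not computed, so nothing is read from the number of separated members. The SFRP1 difference passed without replicate 2 of HAse1.5 (adjusted p = 0.0083).

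Over time, 3 of 8 members passed from day 2.5 to day 4.5 in untreated cardioids, against 23% of all genes, and 1 of 5 without WLS, FZD4 and TMEM88. SFRP1 rose 2.81-fold (log2 1.49, edgeR adjusted p = 0.0137). TMEM88 and WLS, picked on day 2.5, had log2 changes of -1.72 and -1.03. The SFRP1 call was lost without replicate 2 or 3 of day 2.5 (adjusted p = 0.0527 and 0.0543). With HAse1.5 FZD4 and LEF1 passed, 2 of 8 against 22.7% of all genes, and without WLS, FZD4 and TMEM88 it was 1 of 5, LEF1. LEF1 rose 5.41-fold (log2 2.44 ± 0.45, edgeR adjusted p = 0.000595), with no overlap between the days. FZD4, with a log2 change of 1.85, started from the day 2.5 values on which it was chosen.

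From day 4.5 to day 7.5 no member passed in untreated cardioids (1 of 8 at an unadjusted p under 0.05, edgeR; 0 by DESeq2) or with HAse2.5 (2 and 0), against 6.39% and 1.93% of all genes. With HAse1.5, 2 of 8 passed against 8.17% of all genes. SFRP1 rose 3.12-fold (log2 1.64 ± 0.42, edgeR adjusted p = 0.0176), though the days overlapped, and NKD1 fell by 2.73 on the log2 scale (adjusted p = 0.0225), from 28.5, 6.05 and 8.73 CPM to 4.08, 1.44 and 0.697 CPM. SFRP1 lost the call without replicate 1 or 3 of day 4.5 (0.113 and 0.0906) or replicate 2 or 3 of day 7.5 (0.0958 and 0.0844). Without replicate 2 of day 4.5 the SFRP1 change was 2.36 on the log2 scale. NKD1 lost it without replicate 1 of day 4.5 (log2 -1.77, 0.274) or replicate 2 or 3 of day 7.5 (0.0875 and 0.113), and its log2 change was -3.58 without replicate 1 of day 7.5.

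The other genes of the pathway were read from 8 lists holding 90 genes, 80 of them not members, of which 52 were tested in the genotype arm and 46 in the enzyme arm. In the first WT step 11 of the 52 rose and 15 fell, where 30.1% of all genes passed. Among them, all 3 tested WNT-responsive streak genes fell, with MIXL1 going from 1561 ± 241 to 3.37 ± 1.65 CPM (SD, n = 5 and 6) and TBXT from 67.5 ± 23.1 CPM to 0, while the antagonist gene SFRP5 rose from 0.348 ± 0.478 to 53.8 ± 17.5 CPM. In the second WT step 10 rose and 13 fell (34.5% of all genes passed); the ligand gene WNT2 rose from 0.201 ± 0.319 to 143 ± 14.5 CPM (n = 6 and 6). From day 4.5 to 7.5 in WT 2 rose, WNT5B and DKK3, and 2 fell, 1 of them FZD7, where 2.7% of all genes passed.

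Between KO and WT at day 4.5, 2 of the 52 were higher and 2 lower, where 3.74% of all genes passed. SFRP5 was higher, at 115 ± 79.5 against 17.5 ± 3.53 CPM (SD, n = 6 and 6; log2 2.60, edgeR adjusted p = 1.15e-05), as was the Frizzled receptor gene FZD7 (64.7 ± 15.2 against 26.6 ± 12.2 CPM, log2 1.18, adjusted p = 0.0308). DKK3 was lower (12.4 ± 4.90 against 38.2 ± 17.8 CPM, log2 -1.70, adjusted p = 0.00125). With HAse1.5 at day 4.5, WNT2 was lower (16.8 ± 15.2 against 96.8 ± 11.6 CPM, n = 3 and 3; log2 -2.67, adjusted p = 0.00229). LGR4, a receptor for R-spondins, and the ligand gene WNT5A were higher, with log2 changes of 1.37 and 1.03 (adjusted p = 0.00204 and 0.00904). These 3 were the called genes among 46, where 3.48% of all genes passed. WNT5A alone passed at day 7.5 (log2 1.05, adjusted p = 0.0105), where 3.33% of all genes did. SFRP2 alone passed with HAse2.5 at day 7.5 (0.447 ± 0.775 against 14.3 ± 7.28 CPM, adjusted p = 0.0488; 0.659% of all genes).

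Across the 16 group means on the log2 CPM scale, the members fell into patterns that follow the days. The same lines and clones recur across the groups of an arm, so the points are not independent. SP5 and NKD1 had r = 0.945, DKK1 and DKK4 r = 0.922, FZD4 and LEF1 r = 0.879, and SP5 and SFRP1 r = -0.972. After day 1.5 DKK4 had at most 4 counts in any library. From day 4.5 SP5 was at the floor in every group but HAse1.5 at day 4.5. The r values of these 2 genes therefore rest largely on the early days set against low counts. Among 12558 genes tested in both arms, those most like TMEM88 included PLEKHG3 (r = 0.962) and LRRC32 (0.957), and those most like FZD4 were NFKBIZ (0.954), TENT5A (0.944) and HOXB2 (0.94). WLS had a less close set, AHNAK (0.882), KLF13 (0.867) and PERP (0.861), and AXIN2 the least close, PAWR (0.818), NARS1 (0.818) and ELL2 (0.782).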

How the data were processed

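Read counts per Ensembl gene were deposited by the authors as whole numbers, and per the submitters' processing notes they were made with featureCounts of Subread 1.6.2 on GRCh38 (hg38). The aligner, annotation, strand setting and use of molecular identifiers are not given in the sources used here. The table held 58735 gene IDs, of which 58207 matched a current symbol; 4 columns that match no listed sample were not used. Groups came from the sample titles, and the labels call replicates biological without naming cultures, so p-values measure the spread between these libraries.

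Counts were filtered with filterByExpr (minimum count 10), scaled by TMM and fitted in edgeR 4.0.16 (R 4.3.3) with 1 mean per group over the 41 genotype or the 24 enzyme libraries. Quasi-likelihood F-tests were two-sided, with Benjamini-Hochberg adjustment across every gene tested in an arm and a threshold of 0.05. The log2 CPM values used a prior count of 2. DESeq2 1.42.0 and the other alternatives are in the closing section; the script was tested on simulated data. The members, lists and alternatives were chosen with earlier results of these data known. All 10 members are named; of the other WNT genes, up to 3 per comparison with the widest change among those past the threshold; for likeness, the 3 highest correlations, of which 1 is not reported here. Same-numbered enzyme libraries are the same line and same-named genotype libraries recur across days; 15 of 21 same-line pairs within a day and 40 of 51 same-name pairs across days had residual r above 0.1 (lowest -0.108 and -0.184).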

Additional observations from a re-analysis of the deposited data

Results flagged for a closer look

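In groups of 4 to 10 libraries, 48 sets of a member in a group were examined for a library far from the others, and 4 were found; chance alone would mark about 1 set in 20. KO cl4_R1 at day 1.5 stood apart in both DKK1 (236.76 CPM, others 41.9 to 109 CPM) and SP5 (177.03 CPM, others 41.1 to 64.5 CPM). It was the only series A library of that group. The series A WT libraries were also above the other WT libraries in DKK1 that day, while in SP5 only WT_R1 was. The part of the series was not tested. At day 2.5 KO cl46_R1 had 26.156 CPM of AXIN2 where the others had 13.2 to 17.2 CPM, and KO cl14_R1 had 35.516 CPM of LEF1 where the others had 63.8 to 72.3 CPM.

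Of 66 pairs of effects on different days, 3 had every library of one day on one side of its controls and every library of the other day on the opposite side, all of them for HAse1.5 against untreated. The log2 effect on FZD4 was 1.81 higher at day 4.5 than at day 2.5, that on LEF1 was 3.11 higher at day 4.5 and 2.99 higher at day 7.5. These differences contain the day 2.5 contrast that chose the members and were not tested.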

How the results depend on the processing

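No called member changed direction under any alternative run; calls were kept in 561 of these member-by-setting values and lost in 45. These values and the counts below include WLS, FZD4 and TMEM88 in steps to or from day 2.5. Those calls are a description, since the genes were picked on that day. All 10 members kept theirs in the WT step from day 1.5 to 2.5. The number of members called changed by over 1.5 times as follows. KO against WT at day 4.5 had 1, but 2 with DESeq2, 0 with no filter, with RLE factors, with series C alone or with only the groups compared, and 0 to 2 without 1 library. The KO step from day 2.5 to 4.5 had 2, but 4 with only the groups compared and 5 with the replicate block on names across days. The KO step from day 4.5 to 7.5 had 0, but 1 (WLS) with DESeq2, RLE factors, the stricter filter or only the groups compared. HAse1.5 against untreated at day 4.5 had 1, but 2 with the line as replicate block (LEF1 added) and 0 to 1 without 1 library. HAse2.5 against untreated at day 4.5 had 0, but 1 (TMEM88), and its step from day 4.5 to 7.5 had 0, but 2, with only the groups compared. The HAse1.5 step from day 4.5 to 7.5 had 2, but 1 with no filter, with the stricter filter or with only the groups compared, and 0 to 2 without 1 library; NKD1 was not tested under the stricter filter or with only the groups compared. Without 1 library, HAse1.5 against HAse2.5 at day 4.5 and the WT step from day 4.5 to 7.5 ran from 0 to 1. Where fewer genes or libraries were not the setting, the cause was not tested. The block on number series changed no call of KO against WT. Smaller changes were the WT step from day 2.5 to 4.5 (6; 4 with only the groups compared, 5 with RLE factors, 7 with DESeq2, 8 with the replicate block on names), the untreated (3) and HAse1.5 (2) steps over the same days (4 and 3 with no filter) and the KO step from day 1.5 to 2.5 (10; 9 with no filter or only the groups compared). DKK1, DKK4, SP5 and NKD1 had under 10 counts in most libraries after day 2.5, which limits the precision there. With no filter or with only the groups compared, the adjusted p (edgeR) was 0.209 and 0.0794 for WLS in KO against WT at day 4.5, 0.0985 and 0.221 for SFRP1 with HAse1.5 at day 4.5, and 0.0651 and 0.177 for its rise to day 7.5. For the LEF1 fall in WT it was 0.128 with only the groups compared, 0.0526 with RLE factors and 0.0544 with the stricter filter.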
